A study of Homo sapiens with 4 samples.

Results

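The 96 non-centromere units (NCU) of 2 synthetic human artificial chromosomes (HACs) were followed by their position codes, short sequences that differ from unit to unit. The members were chosen by name alone, as the references with the letter L and a number from 1 to 96 in the count file of every library. They were 96 of the 512 references in the files, of which 128 carry the letter T (CenU, the centromere units) and 288 are L references past 96. The letter L was read as NCU, because the NCU units were made from the template called Lm and the CenU units from the template called TW. L references 1 to 96 held 99.5% to 99.8% of all L reads in the 4 libraries.

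The host of both HACs was HT1080, a fibrosarcoma line of human origin that is long established, and each HAC line is 1 clone, named HAC 1-20 or HAC 4-65. Total RNA of each line was used with reverse transcription (RT plus) or without it (RT minus), which gave 4 groups of 1 library. Both lines had received an input DNA of 96 NCU units together with CenU input DNA, codes 65 to 128 for HAC 1-20 and codes 1 to 96 for HAC 4-65. Since every group is 1 library, differences between libraries cannot be set against replicates and p-values were left out. Intervals cover counting error only, because PCR copies of a molecule could not be told apart without molecular identifiers.

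Alphoid DNA is the tandem repeat of human centromeres. CENP-B, a centromere protein, binds a short motif in it, the CENP-B box, and arrays with the box can form a new centromere with the histone variant CENP-A after transfer into cells. Arrays with mutated boxes lack that ability and serve as the flanking, non-centromeric part of a HAC. During HAC formation input molecules join into larger arrays, in which units can be repeated, left out or set in another order.

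The boxes were checked on 1 CenU and 1 NCU unit of 1946 bases from the assembled HAC 1-20 DNA. The motif NTTCGNNNNANNCGGGN, sought on both strands, was found in 5 places of the CenU unit and in 0 of the NCU unit, that of NCU 2. The first box, at position 524 of the unit, and the third box, at position 1209, are shown because together they hold every kind of change seen in the boxes, with the changed bases in capitals.
CenU box 1: tTtcgttggaaaCggga
NCU box 1: tAtcgttggaaaAggga
CenU box 3: ATtcgttggaaaCggga
NCU box 3: TAtcgttggaaaAggga
Counted from the 5′ end of the box, T2A and C13A stood in all 5 boxes, both at bases the motif fixes. A1T stood only in the third, at a base the motif leaves free. The unit sequences were 89.2% identical over the whole unit, so they differed outside the boxes as well. Per the study, CenU units carry tetracycline operators and NCU units carry lactose operators.

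A code is 23 bases long and lies at the end of its unit. All 96 NCU codes share 1 frame with 6 variable positions, here in capitals. The pair at positions 14 and 15 is repeated at positions 19 and 20, and the pair at positions 9 and 10 takes 6 forms, each for 16 codes in a row. The first and last codes of the input, the codes with the highest levels and those that stand apart below are shown.
NCU 1: gggcaaaaAAcccAAtttAAggg
NCU 7: gggcaaaaAAcccTGtttTGggg
NCU 10: gggcaaaaAAcccGTtttGTggg
NCU 41: gggcaaaaAGcccGAtttGAggg
NCU 44: gggcaaaaAGcccGCtttGCggg
NCU 63: gggcaaaaACcccCGtttCGggg
NCU 83: gggcaaaaTTcccAGtttAGggg
NCU 96: gggcaaaaTTcccCCtttCCggg
The closest NCU codes differ from each other by 1 base. An NCU code also has a CenU counterpart 1 base away, as G4C from CenU 7 to NCU 7, counted from the 5′ end of the code. A base error in a read can therefore move it to another code.

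All codes were amplified by 1 pair of primers. The product over the NCU 1 unit, read from the assembly, was 132 bases long and is shown because its parts bear on the last code, with the code in capitals.
NCU 1 amplicon: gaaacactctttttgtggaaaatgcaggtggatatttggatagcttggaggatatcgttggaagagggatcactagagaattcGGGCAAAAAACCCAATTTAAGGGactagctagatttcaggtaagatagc
The forward primer is at the 5′ end, the last mutated box of the unit starts at base 53, and the code starts at base 84. The site of the reverse primer begins with the last base of the code and runs into the next unit.

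NCU reads numbered 208546 (RT minus) and 612193 (RT plus) for HAC 1-20. For HAC 4-65 they numbered 587383 (RT minus) and 563758 (RT plus). The median NCU code had 1978.5, 5705.5, 4993 and 4806.5 reads in the same order, so the RT minus library of HAC 1-20 was the most shallow. NCU codes made up 81.6% to 83.8% of the reads on codes.

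The first question was which NCU units were thinly or richly represented in the DNA of each HAC. The level of a code is its reads in RT minus over the median NCU code of that library, so it is a relative level and not a copy number. Levels were far from even in both lines and changed along the code order in long stretches. In HAC 1-20 the SD of the log2 level over the 95 codes with at least 0.2 times the median was 0.74, beside 0.03 from counting. In HAC 4-65 it was 0.71, beside 0.02 from counting. The highest of these 95 codes exceeded the lowest 9.19 times in HAC 1-20 and 7.68 times in HAC 4-65.

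The rich codes of HAC 1-20 were those at the start of the array. NCU 1 to NCU 31, 60.3 kb of the input DNA, were all at 1.2 times the median or more, with a median level of 1.67 and a range from 1.31 at NCU 22 to 2.78 at NCU 7. NCU 7 had 5495 RT minus and 15929 RT plus reads, a level of 2.78 (95% Poisson interval 2.70 to 2.85) and 2.79. The next highest were NCU 5 at 2.36 and NCU 6 at 2.33. NCU 1 itself, the first unit of the input, was at 1.67 in both libraries. The peak took in NCU 4 to NCU 8, all at 2.17 or more, and from NCU 9 to NCU 31 the levels were 1.31 to 1.93.

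At NCU 32 the level of HAC 1-20 was 0.90, after 1.67 at NCU 31, a step of -0.90 on the log2 scale (SE 0.04). The 64 codes from NCU 32 to NCU 95 had a median level of 0.74, and the median of the first 31 codes was 2.25 times that. This split was placed at the drop after the levels were seen, so a difference was built in and its size is a description only. Only 2 short runs of high codes followed, NCU 33 to NCU 35 and NCU 93 to NCU 95, where a run is 3 or more neighbours on the same side. Runs at 0.8 times the median or less covered NCU 41 to NCU 46, NCU 54 to NCU 71, NCU 74 to NCU 79 and NCU 88 to NCU 90. The longest, NCU 54 to NCU 71, spanned 35.0 kb of the input DNA with a median level of 0.59. In RT plus it was split at 1 inner code, NCU 66, which was at 0.69 in RT minus and at 0.81 in RT plus.

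The lowest codes of HAC 1-20 apart from NCU 96 lay in these runs. NCU 44 had 598 RT minus and 1727 RT plus reads, a level of 0.30 (0.28 to 0.33) without and 0.30 with reverse transcription. NCU 63 was at 0.34 in RT minus and 0.41 in RT plus, and NCU 60 at 0.37 and 0.35. No code before NCU 96 was thus under 0.2 times the median.

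HAC 4-65 had its rich codes at the other end. NCU 68 to NCU 95, 54.5 kb of the input DNA, were all at 1.2 times the median or more, with a median of 1.99. NCU 83 was the highest, with 14138 RT minus and 13245 RT plus reads, a level of 2.83 (2.79 to 2.88) and 2.76. NCU 75 followed at 2.48 and NCU 84 at 2.40. The change was gradual, from 0.99 at NCU 67 to 1.302 at NCU 68 and 1.64 at NCU 69, and NCU 95 was at 1.36. From NCU 67 to NCU 95 the median was 2.27 times that of NCU 1 to NCU 66, at 1.99 and 0.88. This split too was placed after the levels were seen, so a difference was built in.

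A short rich run, NCU 1 to NCU 5, opened the array of HAC 4-65 as well. NCU 4 led it at 2.35 in RT minus and 2.39 in RT plus, NCU 1 was at 1.72 and 1.77, and NCU 2 had the lowest level of the run at 1.29. Low runs were NCU 9 to NCU 15, NCU 44 to NCU 46 and NCU 49 to NCU 57. In the last of these NCU 56, NCU 54 and NCU 55 were the lowest codes but NCU 96, at 0.37, 0.38 and 0.38. NCU 56 had 1842 RT minus and 1665 RT plus reads, and its level of 0.37 (0.35 to 0.39) in RT minus stood beside 0.35 in RT plus.

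Counted over the array, 26 NCU codes of HAC 1-20 were at 1.5 times the median or more, with NCU 12 just under that limit (1.46) and NCU 23 just over it (1.502). The share was 26.2% over NCU and input CenU codes together, each class on its own median, so richly represented codes were about as frequent among CenU. In HAC 4-65 there were 31 such NCU codes beside a background of 31.8%, with NCU 32 under the limit (1.48) and NCU 48 over it (1.51). High runs held 37 NCU codes in HAC 1-20, where the background was 33.8%, and 33 in HAC 4-65, where it was 30.2%. Low runs held 33 NCU codes in HAC 1-20 against a background of 22.5%, and 3 of the 64 CenU codes. In HAC 4-65 they held 19 NCU codes, close to the background of 20.8%. For the run limits the codes next to the threshold were NCU 81 (1.16) and NCU 52 (1.22) at 1.2 times the median in HAC 1-20, and NCU 35 (1.19) and NCU 42 (1.21) in HAC 4-65. At 0.8 times the median they were NCU 69 (0.78) and NCU 86 (0.82) in HAC 1-20, and NCU 36 (0.79) and NCU 26 (0.81) in HAC 4-65.

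RT plus gave nearly the same levels as RT minus. Sorted into codes at 1.2 or more, at 0.8 or less and between, 95 of the 96 codes of HAC 1-20 fell into the same class in both libraries, and 88 of 96 in HAC 4-65. None of the remaining codes went from the high to the low class or back. Over the 95 codes other than NCU 96 the Pearson r of the log2 levels in both libraries was 0.995 in HAC 1-20 and 0.995 in HAC 4-65, a description across codes amplified with the same primers.

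Under 0.2 times the median there was 1 NCU code in each line, and it was NCU 96, the last unit of the input. The background of such codes was 3.75% in HAC 1-20 and 10.9% in HAC 4-65, where 20 of the 96 CenU codes were under the limit. NCU 96 had 21 RT minus and 76 RT plus reads in HAC 1-20, and 97 RT minus and 163 RT plus reads in HAC 4-65. Its levels were 0.011, 0.013, 0.019 and 0.034. NCU 95 beside it was at 1.27 in HAC 1-20 RT minus and at 1.36 in HAC 4-65 RT minus, so the gap to the neighbour was 6.90 and 6.13 on the log2 scale.

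The site of the reverse primer was then looked up beside NCU 96, after its count was seen. In the part of the HAC 1-20 assembly used here, NCU 96 occurred at 1 place, and the 60 bases from the end of its code held no site of the reverse primer. The best match there had 14 mismatches over the 27 bases of the primer. After the 56 other NCU codes found in the same contigs, at 162 places, the site had 0 mismatches at each place. The assembly of HAC 4-65 was not used here.

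Reads also fell on L references past 96, which are no NCU code of the input. As many reads as NCU 96 or more were on 4 of them in the RT minus library of HAC 1-20, on 1 in its RT plus library and on 0 in both libraries of HAC 4-65. The median L reference past 96 had 1 to 2 reads in each library. The 3 codes that differ from NCU 96 by 1 base, NCU 32, NCU 80 and CenU 96, had 3929 to 17728 reads together in a library, and the reads on NCU 96 came to 0.534% to 0.974% of theirs. Their part in the count of NCU 96 was not tested. Some CenU codes were low too. In HAC 1-20 the code numbered just below CenU 128, which follows it in the assembly, had 2 RT minus and 10 RT plus reads. CenU 128 itself, the highest number of that input, had 460 and 1421 reads, an RT minus level of 0.91. In HAC 4-65 CenU 96, the last of its input, had 27 and 45 reads. In RT minus 5 of the 64 CenU codes of HAC 1-20 and 20 of the 96 of HAC 4-65 were under 0.2 times the CenU median. Whether low CenU codes lay at array ends was not tested.

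Steps between neighbours showed where levels changed abruptly, leaving out the step to NCU 96. The median size of a step was 0.21 on the log2 scale in HAC 1-20, with a counting SE of 0.05, and 0.30 in HAC 4-65, with an SE of 0.03. The largest downward steps of HAC 1-20 were from NCU 53 to NCU 54 (-1.13, SE 0.06), from NCU 73 to NCU 74 (-1.06) and from NCU 31 to NCU 32. The largest upward steps were from NCU 44 to NCU 45 (1.06, SE 0.07), from NCU 90 to NCU 91 (1.05) and from NCU 63 to NCU 64 (0.99). All 6 had the same direction in RT plus, from -1.16 for NCU 53 to NCU 54 up to 1.13 for NCU 44 to NCU 45.

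HAC 4-65 had its largest steps elsewhere, with 1 exception. Downward these were from NCU 48 to NCU 49 (-0.97, SE 0.03), from NCU 8 to NCU 9 (-0.82) and from NCU 53 to NCU 54 (-0.80), the place of the largest step of HAC 1-20. Upward they were from NCU 57 to NCU 58 (0.97, SE 0.03), from NCU 15 to NCU 16 (0.82) and from NCU 47 to NCU 48 (0.81). NCU 48 thus stood above both neighbours, at 1.51 beside 0.86 at NCU 47 and 0.77 at NCU 49. In RT plus the step down after it was -0.91 and the step up from NCU 57 was 0.84.

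The levels were also taken by blocks of 32 codes, the size of the first assembled arrays of the study. How these were joined into the input of 96 units is not given in the sources used here. In HAC 1-20 the medians were 1.67 for codes 1 to 32, 0.68 for codes 33 to 64 and 0.76 for codes 65 to 96. The first block held 52.3% of the NCU reads, where an even array would give 33.3%. In HAC 4-65 the medians were 0.91, 0.81 and 1.92, and the last block held 49.4% of the NCU reads. The change of level in HAC 1-20 thus fell 1 unit before the end of the first block, whereas in HAC 4-65 it fell within the first codes of the third block. The middle block had the lowest median in both lines.

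Levels of the same code in the lines were hardly related. Across the 95 codes other than NCU 96, which share primers and sequences but no library, the Pearson r of the log2 levels was 0.053 and the Spearman rho was 0.030. With NCU 96 included r was 0.46 and rho was 0.06, so r rested on that code. Of these 95 codes, 40 were at 1.2 or more in HAC 1-20 and 39 in HAC 4-65. Both lines had such a level at 12 codes, 30.0% of the 40 of HAC 1-20 and 30.8% of the 39 of HAC 4-65. Over all 95 codes 39 were high in HAC 4-65, so the 30.0% was below the share over all codes. The 12 codes were NCU 1 to NCU 5, NCU 7, NCU 16, NCU 33, NCU 91 and NCU 93 to NCU 95. Without NCU 96, a level of 0.8 or less was shared by 12 codes, 34.3% of the 35 of HAC 1-20 and 44.4% of the 27 of HAC 4-65, among them NCU 44 to NCU 46 and NCU 54 to NCU 57. Over all 95 codes 27 were low in HAC 4-65, so the 34.3% was somewhat above the share over all codes.

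About as many codes were on opposite sides of the median, 11 high in HAC 1-20 and low in HAC 4-65 and 15 the other way round. The 11 were among 40 high codes of HAC 1-20, where 27 of all 95 codes were low in HAC 4-65. The 15 were among 35 low codes of HAC 1-20, where 39 of all 95 codes were high in HAC 4-65. Both counts were thus near the shares over all codes. NCU 74 was at 0.43 in HAC 1-20 and 1.99 in HAC 4-65, 4.68 times higher in the latter, and NCU 75 and NCU 89 were 3.84 times higher there. NCU 9 was at 1.65 in HAC 1-20 and 0.54 in HAC 4-65, a level 3.07 times higher in HAC 1-20, and NCU 13 and NCU 10 were 2.62 and 2.48 times higher.

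The second question was whether RT plus differed from RT minus along the code order of the NCU array. RT minus reads came from DNA carried over in the RNA, and RT plus reads can come from that DNA as well as from RNA. How much of RT plus came from RNA was not measured here. A ratio near no change therefore does not show that NCU RNA followed the DNA. For each code its share of the summed NCU reads was taken in both libraries of a line, and RT plus was set over RT minus with a pseudocount of 0.5, and the log2 ratio has a Wald interval from counting. In bulk RNA, fewer cells with transcripts and less RNA per cell cannot be told apart. No NCU code was 2-fold higher or lower in either line, where the background over NCU and CenU codes on the same scale was 2.5% in HAC 1-20 and 4.69% in HAC 4-65. This scale centres the NCU codes near no change, while CenU codes keep any shift of their class. Fewer NCU calls than in the background are therefore partly built in, here and for the thresholds below. For the 95 codes other than NCU 96 the log2 ratio lay between -0.13 and 0.22 in HAC 1-20 and between -0.16 and 0.31 in HAC 4-65. Its SD over these codes was 0.074 in HAC 1-20, where the counting SE was 0.041 (root mean square), and 0.073 in HAC 4-65, where it was 0.030.

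A smaller threshold, a log2 ratio of at least 0.20 with an interval that excludes no change, was met by 2 NCU codes of HAC 1-20, beside a background of 8.75%, and by 3 of HAC 4-65, beside 4.69%. On the lower side it was met by 0 NCU codes in each line, where the background was 0% in HAC 1-20 and 14.1% in HAC 4-65. The 27 lower calls behind this 14.1% were all CenU codes, which are not centred by the scaling. The interval alone lay above no change for 12 NCU codes of HAC 1-20 (background 20%) and below it for 15 (9.38%). In HAC 4-65 it lay above for 17 (16.7%) and below for 17 (30.7%).

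The codes of HAC 1-20 past the threshold were NCU 63 and NCU 66. NCU 63 had 682 RT minus and 2332 RT plus reads, a log2 ratio of 0.22 (SE 0.06). NCU 66 had 1364 and 4647 reads, a log2 ratio of 0.21 (SE 0.04). Scaled to all reads on codes in place of NCU reads, 0 codes passed, and scaled to the median NCU code 4 did. NCU 96 had the highest ratio, 0.28, but with an SE of 0.35 a difference was not detectable at this depth. NCU 25 followed at 0.19 (SE 0.03), with 3164 RT minus and 10623 RT plus reads. The lowest were NCU 60 (-0.13, SE 0.06), NCU 88 (-0.12, SE 0.05) and NCU 62 (-0.12, SE 0.06), so that their order was not detectable.

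NCU 25 to NCU 28 formed the one run of 3 or more neighbours in HAC 1-20 whose intervals lay on the same side, with log2 ratios of 0.19, 0.13, 0.10 and 0.16 and a mean of 0.14. Their neighbours NCU 24 and NCU 29 were at 0.03 each. The levels of the run in RT minus, 1.60, 1.65, 1.93 and 1.40, were within the range of the other codes before NCU 32. A definition of such runs was chosen after the values were seen.

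Several codes with raised ratios had copies near each other in the assembled DNA although their numbers are far apart. On the first contig of HAC 1-20, CenU 104 to CenU 110 were followed by NCU 25 to NCU 28, then by a stretch of 8644 bases between codes, and then by NCU 65, NCU 66, NCU 5, NCU 20, NCU 63 and NCU 50. This order was looked up after the ratios were seen, in the part of the assembly at hand, and most NCU codes were not read on this contig. NCU 65 and NCU 66 had log2 ratios of 0.17 (SE 0.05) and 0.21, NCU 63 had 0.22 and NCU 50 had 0.09 (SE 0.04). NCU 5 and NCU 20 between them were at -0.04 (SE 0.02) and 0.03 (SE 0.03), with levels of 2.36 and 1.71 beside 0.66, 0.69, 0.34 and 0.69 for NCU 65, NCU 66, NCU 63 and NCU 50. On the NCU scale CenU 104 to CenU 110 had log2 ratios from 0.68 to 1.303. At the other end of the stretch read NCU 1 to NCU 9 were between -0.05 and 0.02. Other codes with an interval above no change were not among the codes read on this contig. These were NCU 57 at 0.18 (SE 0.06), NCU 77 at 0.10 (SE 0.04), NCU 68 at 0.09 (SE 0.04) and NCU 94 at 0.07 (SE 0.03). A code can lie at several places of a HAC, and its ratio is that of all of them together. In the part of the assembly at hand NCU 25, NCU 26 and NCU 27 were seen at 4 places each and NCU 28 at 5. NCU 63, NCU 65 and NCU 66 were seen at 1 place each and NCU 50 at 3. Copies of the run NCU 25 to NCU 28 thus also lay away from CenU 110.

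In HAC 4-65 the codes past the threshold were NCU 96, NCU 10 and NCU 41. NCU 96 was at 0.81 (SE 0.18), with the 97 and 163 reads given above. The L references past 96 moved with it in this line, with 1287 RT minus and 1897 RT plus reads and a log2 ratio of 0.62 (SE 0.05) on the NCU scale. Their part in the ratio of NCU 96 was not tested. In HAC 1-20 the same references were at -0.53 (SE 0.05), and without the most frequent of them at -0.82.

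NCU 10 had 2883 RT minus and 3436 RT plus reads of HAC 4-65, a log2 ratio of 0.31 (SE 0.04). Its neighbours NCU 9 and NCU 11 were lower, at 0.08 (SE 0.04) and -0.05 (SE 0.04), though the interval of NCU 9 also lay above no change. NCU 41 had 3660 and 4157 reads and a log2 ratio of 0.24 (SE 0.03), and it lay in a run from NCU 35 to NCU 43 whose 9 intervals were all above no change. The run had a mean log2 ratio of 0.13 and values between 0.07 and 0.24, and NCU 36, at 0.17 (SE 0.03), was its second highest code. Codes before and after it, NCU 34 at 0.03 and NCU 44 at -0.03, had intervals that held no change. The run covered no rich or poor stretch of the DNA, with levels from 0.73 at NCU 41 to 1.21 at NCU 42. The lowest ratios of the line were those of NCU 24 (-0.16, SE 0.04), NCU 13 (-0.12, SE 0.04) and NCU 58 (-0.10, SE 0.03).

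By groups of 16 codes in a row, the median log2 ratio of HAC 4-65 was 0.07 for codes 33 to 48 and between -0.04 and 0.00 for the others. In HAC 1-20 the medians of the 6 groups were between -0.03 and 0.02. The ratios of the lines showed little relation across codes. Without NCU 96 the Pearson r was -0.080 and the Spearman rho was -0.018 over 95 codes, and with it r was 0.22 and rho was 0.01. NCU 77 was the 1 code with an interval above no change in both lines, at 0.10 in HAC 1-20 and 0.04 in HAC 4-65. NCU 69, NCU 70 and NCU 81 were below it in both, at -0.09, -0.10 and -0.09 in HAC 1-20 and -0.05, -0.06 and -0.05 in HAC 4-65. Another 6 codes were on opposite sides in the lines. Over all 96 codes the interval lay above no change for 12 in HAC 1-20 and 17 in HAC 4-65, and below it for 15 and 17.

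The sequence of a code was not used to choose it, so levels and ratios were set beside it. The GC count of the 6 variable bases ranged from 0 to 5. Its Pearson r with the log2 ratio over 96 codes was 0.03 in HAC 1-20 and 0.05 in HAC 4-65, and without NCU 96 it was -0.014 and -0.048. With the log2 level r was -0.29 and -0.17, where all points share a library and where the pair at positions 9 and 10 changes with the place in the array. The groups of 16 codes that share this pair followed the stretches described above, with median levels of 1.75 for AA, 1.58 for AT, 0.97 for AG, 0.50 for AC, 0.71 for TA and 0.98 for TT in HAC 1-20. In HAC 4-65 they were 1.04, 0.90, 0.98, 0.64, 1.71 and 2.03. Codes 49 to 64, with AC at positions 9 and 10, had the lowest median in both lines.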

How the data were processed

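Total RNA of 2 HAC lines was amplified with common primers by competitive PCR, with or without reverse transcription, and sequenced on a MiSeq. Per the methods of the study, the authors trimmed reads with cutadapt 4.0, matched them to the code list with bowtie, and took counts from samtools idxstats. The files as deposited by the authors hold counts of reads for each reference, not normalized. Reference sequences were 82 bases long for NCU 1 and 67 for the other 95. Reads matched to no code, 6.19% to 7.54% per library, were left out.

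Levels, runs, steps and ratios were computed in Python 3.11.15 (scipy 1.17.1, numpy 2.4.6), and the scripts were tested on simulated data. Intervals are 95% and cover counting error only. Each group held 1 library, so no test was run. Sequences came from the code and primer lists and from part of the HAC 1-20 assembly of the study. A code has no genome coordinates, since the repeats are synthetic, and is placed by its number.

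The members and lists were chosen with earlier results of these data known. The codes named in each line were NCU 1 and NCU 96, codes under 0.2 or at 1.5 times the median and more (these by counts), the ends of runs, the 3 highest and 3 lowest by level and by ratio, the 3 largest steps each way, and codes next to a threshold. Codes beside a run or on the first contig, and those whose intervals lay on the same or on opposite sides of no change in both lines, were added after their values were seen. Alternatives covered the centre, the library, the limits, the pseudocount, the scaling, background subtraction and low codes. The background pooled the NCU codes with the CenU codes of each input, 160 codes for HAC 1-20 and 192 for HAC 4-65. For levels each class was on its own median, and for ratios both were on the NCU scale.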

Additional observations from a re-analysis of the deposited data

Results flagged for a closer look

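In 6 NCU codes the intervals of the RT plus over RT minus ratio lay on opposite sides of no change in the lines. Of the 12 codes above it in HAC 1-20, 3 were below it in HAC 4-65, where 17 of all 96 codes were below. Of the 15 codes below it in HAC 1-20, 3 were above it in HAC 4-65, where 17 of all 96 codes were above. The count of opposite codes was thus near the shares over all codes. The difference of the log2 ratios, HAC 1-20 minus HAC 4-65, was -0.35 for NCU 41 (-0.11 in HAC 1-20 and 0.24 in HAC 4-65) and 0.29 for NCU 25 (0.19 and -0.10). It was 0.20 for NCU 27, -0.15 for NCU 23, -0.15 for NCU 35 and 0.13 for NCU 94. NCU 25 and NCU 27 lay in the raised run of HAC 1-20, and NCU 35 and NCU 41 in that of HAC 4-65. These differences were not tested, since each line has 1 library per group.

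Reads matched to no code made up 7.54% of HAC 4-65 RT plus (95% Wilson interval 7.48 to 7.60) and 6.26% of HAC 4-65 RT minus (6.21 to 6.32). For HAC 1-20 the shares were 6.19% (RT plus) and 6.48% (RT minus). Their part in the NCU ratios was not tested.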

How the results depend on the processing

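No paired analysis was possible because there is 1 RT plus and 1 RT minus library of each line. For the 38 results that answer a comparison, 112 other settings were tried. A count was taken as kept within 1.5 times, and a median inside its counting interval. An SD was taken as kept within 1 counting SE of a code, and a correlation inside a Fisher interval over codes. That last interval treats codes as independent, which they are not, so it is wide and is not printed here. By these rules 91 of the settings kept the result and 21 did not. The sign changed in 4 of these settings, all of them correlations recomputed without NCU 96. These were the Pearson r (0.22 to -0.080) and Spearman rho (0.013 to -0.018) of the ratios of the lines, and the r of GC count and ratio in HAC 1-20 (0.028 to -0.014) and HAC 4-65 (0.054 to -0.048). For single codes the sign changed in 3 settings, each a ratio within its interval. A value inside the counting interval was given by 152 of 188 settings, and the other 36 concerned levels or steps. With a limit of 0.5 times the median for a thin code, 13 codes of HAC 1-20 and 4 of HAC 4-65 were under it. With 2 times the median for a rich code, 5 and 15 were at or above it. On the mean in place of the median, an alternative added after the data were seen, 19 codes of HAC 4-65 were at 1.5 or more. With run limits of 1.3 and 0.7, low runs of HAC 4-65 held 11 codes. No background is given for these limits or for the other ratio thresholds and scalings below. Such counts therefore cannot be set against those of CenU codes. From RT plus, the block medians of HAC 4-65 were 0.85 for codes 33 to 64 and 1.84 for codes 65 to 96.

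The count of higher codes in HAC 1-20 was 4 scaled to the median NCU code, 0 scaled to all reads on codes, 6 at a log2 threshold of 0.14 and 0 at 0.32. In HAC 4-65 it was 5 and 1 at those thresholds, and 1 code was lower at 0.14. Over all 96 codes the SD of the log2 level was 0.99 in HAC 1-20 and 0.92 in HAC 4-65, both raised by NCU 96. With codes at 0.2 times the median or more, the SD of the ratio in HAC 4-65 was 0.073, and the Pearson r of the lines was 0.053 for levels and -0.080 for ratios. Without NCU 96 the codes with the repeated pair CC had a median level of 1.48 in HAC 4-65. The settings for the SDs, the Pearson r and the pair CC differ from the main ones by adding or leaving out NCU 96. The scalings and thresholds named before them do not, and the cause of those changes was not tested.

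Depth limits single codes most in HAC 1-20 RT minus, where the median counting SE of a log2 ratio was 0.04 and that of NCU 96 was 0.35. Levels are shares of reads and not copies, and a code that lies at several places gives 1 value for all.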

Other observations

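Beside the long stretches, single codes stood above or below their neighbours in a way that could be grouped by the repeated pair at positions 14 and 15. The deviation of a code is its log2 level minus the mean of both neighbours, a measure chosen after the data were seen, for NCU 2 to NCU 94. The pairs follow each other in the same order in every group of 16 codes. Thus GG always lies between GT and GC, and CA between GC and CT. A low pair raises the deviation of the pairs beside it, so pair values are not independent. Both lines share this order, which also enters the likeness of their deviations. Codes with the pair GC had the lowest median deviation in both lines, -0.30 in HAC 1-20 and -0.42 in HAC 4-65, and 0 of 6 lay above their neighbours in HAC 1-20 and 2 of 6 in HAC 4-65. NCU 44, the lowest code but NCU 96 in HAC 1-20, is one of them. Codes with TT were at -0.15 and -0.32, and codes with GA at -0.20 and -0.32. Codes with GG were at 0.36 in HAC 1-20 and 0.12 in HAC 4-65, above their neighbours for 5 of 6 and 6 of 6 codes, and codes with CA were at 0.19 and 0.22, for 6 of 6 and 5 of 6. The sign differed between the lines for 4 pairs, AA (0.21 and -0.19), GT (-0.16 and 0.10), AG (-0.02 and 0.23) and CG (0.07 and -0.06). The highest pair of HAC 4-65 was CC at 0.34, with 0.04 in HAC 1-20. The median deviations of the 16 pairs had a Pearson r of 0.60 between the lines (Spearman rho 0.54), and across the 93 single codes r was 0.32 and rho was 0.35.

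The ratios were grouped by pair as well. The median log2 ratio of a pair was between -0.05 and 0.03 in either line, and the medians of the 16 pairs had a Pearson r of 0.70 between the lines (Spearman rho 0.72). Codes with CA were at 0.03 in both lines, and codes with CT at -0.04 and -0.05. The order was not that of the level deviations, since TT and GA had ratios of 0.02 in HAC 1-20 and 0.03 in HAC 4-65 and GG had -0.02 and -0.03. The points share the code sequences and the primers but no library.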
